A study of Mus musculus with 28 samples.

Results

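The genes described here encode secreted growth factors, the vessel-constricting peptide endothelin, a receptor for vascular growth factors and a matrix protein, all of which take part in tissue repair. They are Edn1, Inhba, Tgfb1, Pdgfa, Pdgfb, Hbegf, Areg, Igf1, Flt1 and Fn1, 10 of the 27670 genes on the array. They were chosen by name, with earlier results of these data known. Each was represented by the brightest of the probes that bear its name. Expression was measured on 28 single-colour arrays in macrophages that had been grown from C57BL6/J mouse bone marrow in human CSF1 at 200 ng/ml, the growth factor on which macrophages depend. All 6 groups shared this culture. Treatment began on day 7. Cells were left untreated (7 arrays), received lipopolysaccharide (LPS) at 10 ng/ml for 4 h (7 arrays), IL-4 at 10 ng/ml for 18 h (4 arrays) or IFN-γ at 100 U/ml for 18 h (3 arrays). In the remaining groups LPS was added to cells in IL-4 (4 arrays) or in IFN-γ (3 arrays) for the final 4 h. Each culture pooled the marrow of animals aged 8 to 12 weeks, recorded as 2 males and 1 female, so the arrays of a group differ by experiment and not by single animals. The submitters state at least 3 independent experiments for each condition. Each experiment has a letter. The untreated and LPS groups hold A to G, both IL-4 groups hold A, B, C and G, and both IFN-γ groups hold E, F and G.

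Macrophages sense LPS, a component of the bacterial outer membrane, through the receptor TLR4. IL-4 is a cytokine of type 2 immunity that signals through STAT6, and IFN-γ is a cytokine of antibacterial defence. In wounds and in infected tissue macrophages are a source of growth factors that act on fibroblasts, epithelium and vessels. Endothelin, activin A, PDGF, the EGF receptor ligands and IGF1 each bind their own receptors on such cells. FLT1 is a receptor that macrophages can carry themselves, and fibronectin is laid down in the matrix around cells.

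A level is the log2 processed signal minus the array's own 75th percentile, so 0 is the signal of a probe at that percentile. Levels of different genes come from different probes and are not compared with each other. The 75th percentile ran from 582 to 2113 intensity units, and the scanner software called between 60.0% and 78.5% of an array's gene probes well above background. All 8 macrophage markers examined were well above background on all 28 arrays. The summed level of 4 dendritic cell markers ran from -1.49 to -0.69 on untreated and from 1.00 to 3.08 on LPS arrays, and that of 5 T cell markers from -1.87 to -0.85 and from 0.68 to 2.35. For 4 megakaryocyte markers it was 5.41 to 6.17 untreated, 4.06 to 4.30 with IFN-γ and 3.64 to 4.48 in IFN-γ with LPS. These sums add linear signal, so the brightest genes carry them. Over all arrays Pf4 ran from 3.64 to 6.74, and no other megakaryocyte marker exceeded -2.49. Lck reached 2.18, and the other T cell markers at most -1.02. Of the dendritic cell markers Zbtb46 reached 3.44 and Ccr7 0.83, against -3.07 for Flt3 and -1.40 for Xcr1. The part of these markers in the results was not tested. Arrays lay on 10 slides scanned on 5 days. Deviations from the group mean correlated at a median r of 0.43 over 32 pairs of arrays that shared a slide and belonged to different groups, against -0.05 over 286 pairs that did not share one (correlations across genes, which are not independent replicates). In 7 of the 11 comparisons slides held both groups, and every called gene of the 10 changed in the same direction on each of those slides. The arrays on these slides also gave the calls, so this agreement is not a separate check.

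The 10 genes showed 3 main patterns. Edn1 and Inhba rose many-fold after LPS in unprimed and in primed cells. Without LPS, Edn1 also rose in IL-4 (6.65 on the log2 scale) and IFN-γ (4.32), and Inhba rose in IFN-γ (5.13). The Edn1 rise in IFN-γ was not called with another background correction. Fn1, Flt1, Hbegf, Pdgfa and Igf1 rose in IL-4, and of these Fn1 and Igf1 fell in IFN-γ while Flt1 rose there too. Fn1 was well above background on no IFN-γ array, and the call of its fall was lost under several other settings. Pdgfb fell after LPS in unprimed and IL-4 primed cells, with no call in IFN-γ primed cells. Areg was not well above background on any array and was not tested, so the counts below are over 9 genes.

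**Figure D1:**
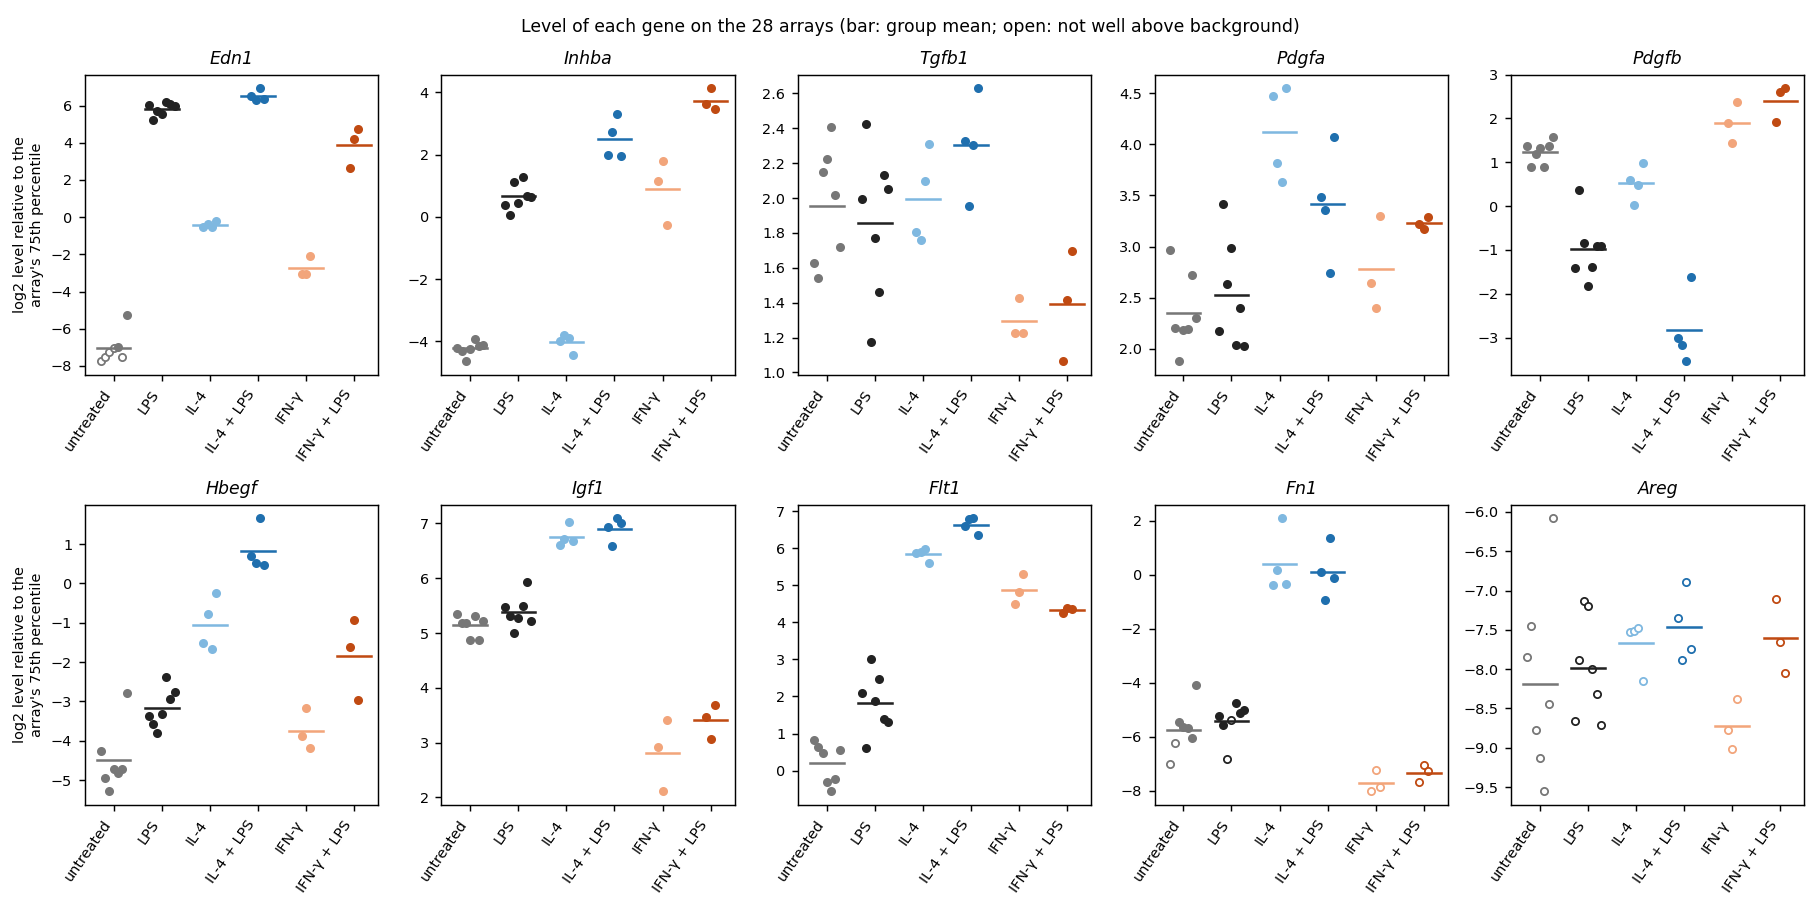
Level of each of the 10 genes (log2 processed signal minus the array's 75th percentile; each panel has its own vertical scale) on every array of the 6 groups. Points are arrays, bars group means, and open points arrays on which the probe was not well above background. Edn1 lay below -5 on the untreated arrays and above 5 on the LPS arrays, and all Areg points are open.

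A gene was called at an adjusted p under 0.05 in limma's test, with adjustment over the 22447 genes tested. After LPS in unprimed cells, 4 of the 9 genes were called higher (Edn1, Inhba, Flt1 and Hbegf) and 1 lower (Pdgfb), where 20.8% of all genes tested were called higher and 21.5% lower. In IL-4 against untreated, 6 were higher and none lower, against 5.73% and 5.44% of all genes. IFN-γ against untreated gave 3 higher and 3 lower, against 12.6% and 13.0%. LPS in IL-4 primed cells raised 3 and lowered 1, against 14.9% and 16.2%. LPS in IFN-γ primed cells raised 3 and lowered none, against 5.62% and 6.21%. The 3 comparisons of LPS, IL-4 and IFN-γ with untreated cells share the same untreated arrays. The genes were chosen with earlier results of these data known, so shares and medians over all genes are given for reference and not as a test.

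Between groups that had all received LPS, IL-4 priming gave 6 genes higher and 1 lower than LPS alone, against 4.33% and 4.52% of all genes. IFN-γ priming gave 4 higher and 3 lower, against 10.6% and 12.0%. These share the LPS arrays. The difference between the LPS change in primed and in unprimed cells, called the interaction, was lower for 1 gene and higher for none with IL-4, against 0.682% and 0.904% of all genes. With IFN-γ it was lower for 3 and higher for 1, against 5.23% and 3.02%. IL-4 set directly against IFN-γ gave 6 higher and 2 lower, against 14.7% and 13.0%. With LPS in both, the counts were again 6 and 2, against 13.8% and 11.6%.

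The median difference over the 9 genes was 1.77 on the log2 scale in IL-4 against untreated and 1.52 in IL-4 with LPS against LPS alone. Over all genes tested these medians were 0.01 and 0.08. The all-gene median was -0.29 in IFN-γ against untreated and 0.30 in IL-4 against IFN-γ, and it moved to 0.16 and -0.06 when arrays were scaled to their median signal, so differences under about 0.5 in comparisons with IFN-γ depend on the scaling.

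**Figure D2:**
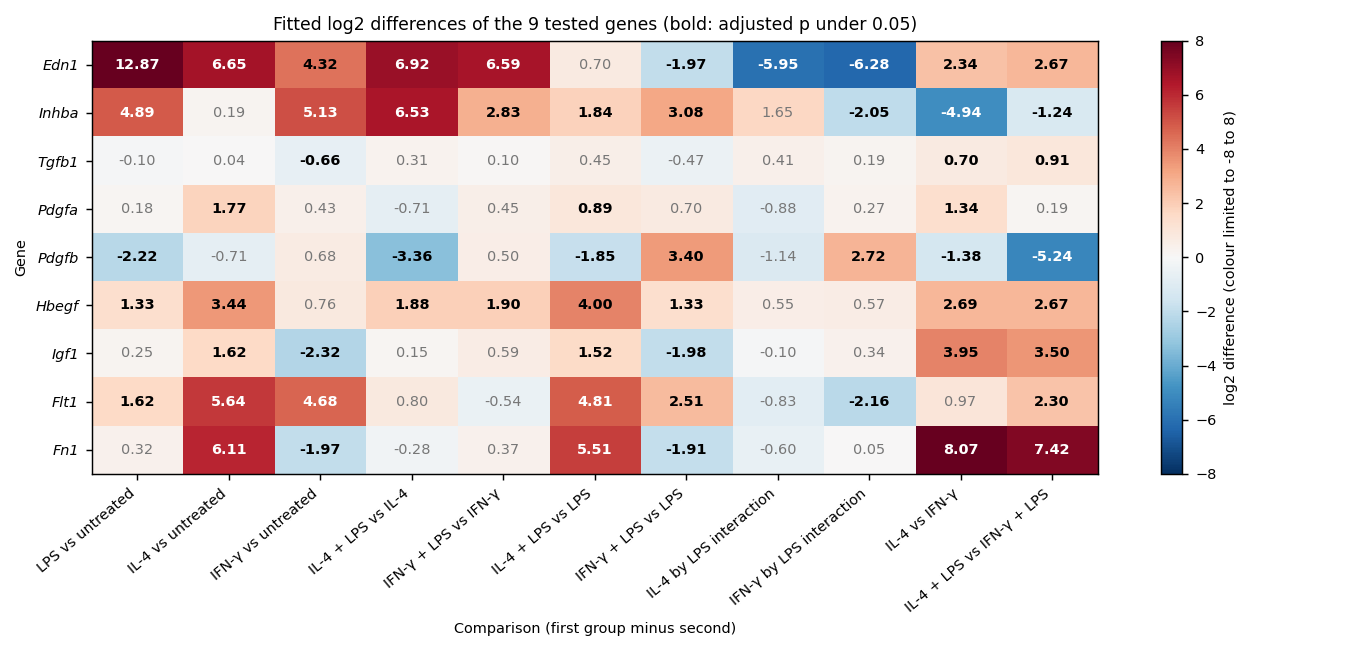
Fitted log2 difference (first group minus second) of the 9 tested genes in the 11 comparisons. Rows are genes, columns comparisons, colour runs from blue (lower) to red (higher), and bold numbers are differences at adjusted p under 0.05. Edn1 has the widest span, from 12.87 for LPS against untreated to -6.28 for the IFN-γ interaction.

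Promoters are shown for 4 genes whose levels moved in different ways, namely Edn1, Inhba, Flt1 and Igf1. Of the 10 genes, 7 had an entry in the RefSeq promoter table (build GRCm38.p6), and Pdgfb, Hbegf and Fn1 did not. The sequences are the 250 bases before the annotated start site, 5′ to 3′ on the gene's strand. Capitals mark matches, on either strand, to AP-1 (TGANTCA), the cAMP response element (TGACGTCA), NF-κB (GGGNNTTTCC), the STAT6 site (TTCNNNNGAA) and the TATA box (TATAAA), where N is any base. Edn1 is at chr13:42301226-42301475 on the plus strand, Inhba at chr13:16011601-16011850 on the plus strand, Flt1 at chr5:147726012-147726261 on the minus strand and Igf1 at chr10:87860861-87861110 on the plus strand.
Edn1: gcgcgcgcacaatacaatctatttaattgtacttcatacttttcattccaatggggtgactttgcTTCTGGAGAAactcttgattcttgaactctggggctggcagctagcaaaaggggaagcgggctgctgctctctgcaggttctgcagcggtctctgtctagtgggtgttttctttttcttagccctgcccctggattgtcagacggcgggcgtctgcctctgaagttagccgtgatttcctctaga
Inhba: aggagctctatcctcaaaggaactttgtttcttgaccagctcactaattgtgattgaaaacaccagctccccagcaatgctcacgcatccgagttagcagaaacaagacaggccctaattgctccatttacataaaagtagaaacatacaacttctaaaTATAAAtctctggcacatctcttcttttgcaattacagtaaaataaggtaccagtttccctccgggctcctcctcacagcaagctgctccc
Flt1: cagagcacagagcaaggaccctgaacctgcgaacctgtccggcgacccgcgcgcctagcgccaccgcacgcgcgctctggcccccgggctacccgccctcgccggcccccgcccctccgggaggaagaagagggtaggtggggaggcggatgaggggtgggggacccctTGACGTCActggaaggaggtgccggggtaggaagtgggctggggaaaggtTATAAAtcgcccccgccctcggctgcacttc
Igf1: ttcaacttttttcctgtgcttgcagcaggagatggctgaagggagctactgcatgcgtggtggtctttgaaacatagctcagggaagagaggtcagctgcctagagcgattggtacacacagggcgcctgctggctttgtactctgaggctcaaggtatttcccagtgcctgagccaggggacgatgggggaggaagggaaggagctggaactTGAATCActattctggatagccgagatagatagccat

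The Edn1 window held 1 match to the STAT6 letters, from -185 to -176 relative to the start site. That pattern was found in 5.85% of the 32851 promoters of the table. Inhba held a TATA box match from -91 to -86 and Flt1 one from -31 to -26, and 12.4% of promoters held one. Flt1 also held a cAMP response element from -81 to -74, found in 1.55% of promoters. Igf1 held an AP-1 match from -37 to -31, found in 6.75%. Among the promoters not printed, Areg held a cAMP response element and a TATA box, and the windows of Pdgfa and Tgfb1 held none of these patterns. The NF-κB letters (1.41% of promoters) were in none of the 7 genes' windows. These are matches of letters in a short window and say nothing about binding.

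Edn1 encodes preproendothelin, the precursor of the peptide endothelin-1. On the 7 untreated arrays its level ran from -7.74 to -5.28 (median -7.27), and it was well above background on 2 of them. On the 7 LPS arrays it ran from 5.20 to 6.21 (median 5.95). The groups did not overlap, and LPS raised Edn1 by 12.87 ± 0.32 on the log2 scale (fitted difference ± standard error, as in all such pairs here; adjusted p = 1.64e-19). With normexp background correction, another way to treat dim signals, the difference was 8.73. On the 4 IL-4 arrays A, B, C and G the level was -0.53, -0.36, -0.53 and -0.18. In IFN-γ (E, F and G) it was -3.08, -3.06 and -2.07. Both groups lay above all untreated arrays, by 6.65 ± 0.37 for IL-4 (adjusted p = 2.88e-12) and by 4.32 ± 0.41 for IFN-γ (1.61e-08). With normexp correction the IL-4 difference was 2.88, still called, and the IFN-γ difference was 0.81 and not called.

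LPS raised Edn1 further from these higher starting levels. In IL-4 with LPS the arrays A, B, C and G read 6.49, 6.32, 6.93 and 6.33, a rise of 6.92 ± 0.42 over IL-4 alone (adjusted p = 1.94e-12). In IFN-γ with LPS the arrays E, F and G read 2.64, 4.18 and 4.74, a rise of 6.59 ± 0.48 (1.82e-09). After LPS the IL-4 primed cells lay 0.70 above the unprimed cells, a difference that was not called (95% interval -0.07 to 1.47), except with the slide as a block (adjusted p = 0.0108). The IFN-γ primed cells lay 1.97 ± 0.41 below unprimed cells (adjusted p = 0.00089), and the groups did not overlap. The LPS change was thus smaller than in unprimed cells, with an interaction of -5.95 ± 0.53 for IL-4 (1.97e-07) and -6.28 ± 0.58 for IFN-γ (1.25e-07). Under normexp correction the IL-4 interaction was -2.16 and not called, and the IFN-γ interaction was -3.01 (adjusted p = 0.0165). The unprimed baseline under both interactions rests on untreated arrays that were mostly not above background.

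Endothelin acts through the receptors encoded by Ednra and Ednrb, and Ece1 encodes the enzyme that cuts the precursor to the active peptide. Of 7 tested genes of the endothelin system, LPS raised Mme (1.66), a peptidase that degrades endothelin, and lowered Ece2 (-0.64), where 20.8% of all genes were called higher and 21.5% lower, with a median of 0.36 against 0.06 over all genes. Mme was well above background on 1 of 7 untreated arrays, and its rise was not called over the mean of its probes (0.775). IL-4 raised Ednrb by 0.81 ± 0.24 (adjusted p = 0.0265), where 5.73% of all genes were called higher, with a median of 0.01 over the list. That call was lost with median scaling (0.0737) and without IL-4 array A, B or G or untreated array D or F. IFN-γ lowered Ednrb by 1.97 ± 0.27 (3.36e-06) and Ece2 by 1.26 ± 0.32 (0.00445), where 13.0% of all genes were called lower, with a median of -0.51 against -0.29. With normexp correction the fall of Ednrb in IFN-γ was still called and the other 4 of these calls were lost. The Ece2 fall with LPS was also lost without LPS array A, B or G or untreated array A, F or G, with no filter on dim probes (0.0524) and when only these groups were fitted (0.0518). These genes were chosen after their values were seen. Ednra was well above background on at most 3 arrays of any group and was not called in any comparison. Endothelial markers, examined because endothelium is a major source of endothelin, had summed levels of 3.56 to 3.96 on untreated arrays, 3.68 to 4.27 with LPS, 4.66 to 5.48 with IL-4, 4.11 to 4.56 in IL-4 with LPS, 4.00 to 4.53 with IFN-γ and 3.80 to 4.55 in IFN-γ with LPS. Of these 6 markers 5 were well above background on every untreated array and all 6 on every array of the other groups. Over all arrays Vwf ran from 1.29 to 5.46, Kdr from -3.27 to 4.07 and Cdh5 from -5.23 to -1.68. Kdr moved unlike the sums. Its mean was 0.964 untreated, 3.405 with LPS, -1.817 with IL-4 and 2.351 in IL-4 with LPS. In IFN-γ it was 3.286, and 3.455 with LPS added. The part of the endothelial markers in the changes of Edn1 and Flt1 was not tested. In RNA from whole cultures, fewer cells of a type and less RNA per cell cannot be told apart.

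Inhba encodes the activin A subunit, a member of the TGF-β family. On the untreated arrays it lay between -4.64 and -3.93 (median -4.20), and on the LPS arrays between 0.07 and 1.28 (median 0.63). The groups did not overlap and differed by 4.89 ± 0.26 (adjusted p = 7.73e-14), a 29.6-fold rise. With normexp correction this difference was 3.39 and still called. IL-4 alone left it at -4.01, -3.80, -3.90 and -4.43 on arrays A, B, C and G, within reach of the untreated arrays (difference 0.19, 95% interval -0.44 to 0.82). In IFN-γ alone arrays E and F read 1.16 and 1.81 and array G read -0.27. All 3 were above every untreated array, by 5.13 ± 0.34 (2.69e-11; 3.72 with normexp correction).

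With LPS, IL-4 primed cells reached 1.99, 2.72, 3.32 and 1.96 on arrays A, B, C and G, 6.53 ± 0.34 above IL-4 alone (adjusted p = 1.51e-13; 4.72 with normexp correction). This was 1.84 ± 0.31 above LPS alone (0.000186), with no overlap. IFN-γ primed cells reached 3.61, 4.14 and 3.45, 2.83 ± 0.40 above IFN-γ alone (2.8e-05) and 3.08 ± 0.34 above LPS alone (3.96e-07). Inhba was therefore higher after LPS in both primed groups than in unprimed cells, from a baseline that IL-4 had left near the untreated level and IFN-γ had raised. The LPS change in IFN-γ primed cells was 2.05 ± 0.48 smaller than in unprimed cells (adjusted p = 0.00622), though not called with normexp correction (-0.997). In IL-4 primed cells it was 1.65 ± 0.43 larger, at an adjusted p of 0.0507. That difference was called with the experiment letter (adjusted p = 0.0417), the scan day (0.00791) or the slide (0.00346) as a block.

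**Figure D3:**
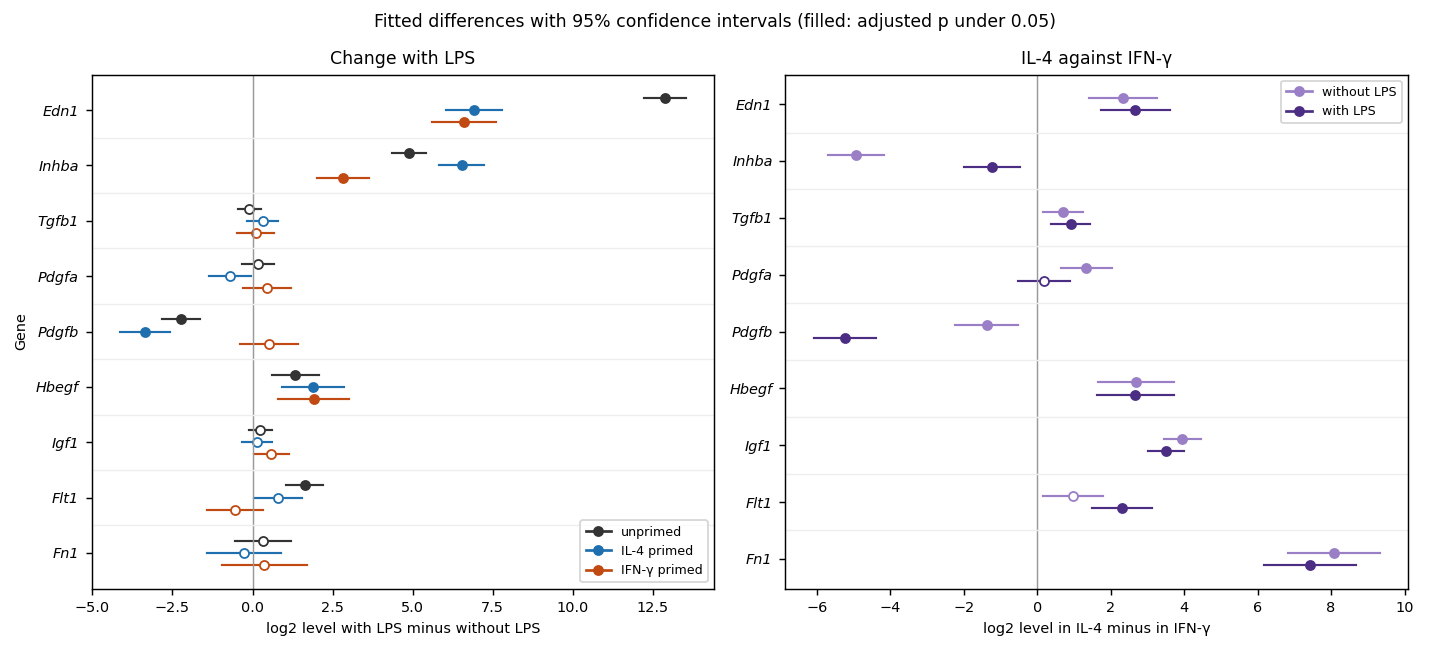
Left, log2 change with LPS in unprimed, IL-4 primed and IFN-γ primed cells. Right, log2 difference of IL-4 minus IFN-γ without and with LPS. Points are fitted differences of the 9 tested genes, lines 95% confidence intervals, filled points differences at adjusted p under 0.05. The 3 Inhba intervals in the left panel do not meet, and Pdgfb lies below 0 in unprimed and IL-4 primed cells and at 0.50 in IFN-γ primed cells.

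Tgfb1 encodes TGF-β1, a cytokine that drives matrix deposition and restrains inflammation. Its level ran from 1.54 to 2.41 (median 2.02) on the untreated arrays and from 1.17 to 2.42 (median 2.00) with LPS, groups that overlapped almost fully (difference -0.10, 95% interval -0.47 to 0.28). IL-4 gave 1.80, 1.76, 2.10 and 2.31 on arrays A, B, C and G, inside the untreated range. In IL-4 with LPS the arrays read 2.33, 1.95, 2.31 and 2.63, and in IFN-γ with LPS 1.06, 1.42 and 1.69. Neither differed from LPS alone by an adjusted p under 0.05 (0.45 and -0.47), though both did with the slide or the scan day as a block. In IFN-γ the arrays E, F and G read 1.23, 1.43 and 1.22, below all untreated arrays. This fall was 0.66 ± 0.23 (adjusted p = 0.0392), of which 0.29 matches the shift of the median gene. It was not called when arrays were scaled to their median (-0.21), with normexp correction (-0.57), without the filter on dim probes, or with the experiment letter as a block (adjusted p = 0.0504). Leaving out any 1 of the 3 IFN-γ arrays, or the untreated array C, D, E or F, also ended the call.

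Of 35 tested genes of the TGF-β and activin pathway, 11 rose and 8 fell after LPS, against 20.8% of all genes higher and 21.5% lower (median 0.02, against 0.06). Itgb8, the integrin subunit that releases TGF-β from its latent complex, was well above background on no untreated array and on all LPS arrays. It was at least 233-fold higher with LPS (adjusted p = 2.57e-16). Smad3, which carries the TGF-β and activin signal to the nucleus, fell by 4.59 ± 0.38 (1.8e-10) and was well above background on 1 of 7 LPS arrays. The receptor gene Tgfbr1 changed by -2.58 ± 0.27 and the inhibitor Smad7 by -2.01 ± 0.38. The Smad7 fall was not called with normexp correction. Fst, which encodes the activin-binding protein follistatin, rose by 4.81 ± 0.59 (1.82e-07); it was well above background on 3 untreated and all 7 LPS arrays, and it was added here after its value was seen.

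IL-4 against untreated raised 2 genes of this list and lowered 7, against 5.73% of all genes higher and 5.44% lower (median -0.25, against 0.01). Itgb8 was at least 7.31-fold higher, though not called with normexp correction, and Bambi, a decoy receptor, rose by 0.90 ± 0.28 (0.0405; chosen after its value was seen). Among the genes that fell was Ltbp2 (-2.05 ± 0.28; not called with normexp correction or over the mean of all its probes). IFN-γ raised 9 and lowered 3, against 12.6% higher and 13.0% lower (median 0.08, against -0.29). Thbs1, which encodes thrombospondin-1, an activator of latent TGF-β, rose by 5.41 ± 0.79 (adjusted p = 1.05e-05). After LPS, Itgb8 rose by 6.46 in IL-4 primed and by 6.57 in IFN-γ primed cells, and Smad3 fell by 2.88 (adjusted p = 5e-05) and by 2.51 (0.00412). Itgb8 was well above background on 1 of 3 IFN-γ arrays, and Smad3 on 1 of 4 arrays of IL-4 with LPS and 2 of 3 of IFN-γ with LPS. With normexp correction the Smad3 differences were -0.74 and 0.03, and neither was called.

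Pdgfa and Pdgfb encode the A and B chains of platelet-derived growth factor, which attracts and expands fibroblasts and pericytes. Pdgfa lay between 1.88 and 2.97 (median 2.20) on the untreated arrays. On the IL-4 arrays A, B, C and G it was 4.48, 3.82, 3.63 and 4.55. These lay above all untreated arrays, a rise of 1.77 ± 0.28 (3.41-fold, adjusted p = 6.44e-05). LPS alone gave 2.02 to 3.42 (median 2.40), overlapping the untreated range (difference 0.18, 95% interval -0.32 to 0.67). IFN-γ gave 2.64, 2.40 and 3.30, also overlapping it (difference 0.43, 95% interval -0.20 to 1.07; called only with the slide as a block, at 0.65 and adjusted p = 0.0287). With LPS the IL-4 primed cells read 3.48, 3.36, 2.74 and 4.08, 0.89 ± 0.28 above LPS alone (adjusted p = 0.0472). In IFN-γ with LPS it read 3.22, 3.17 and 3.29, 0.70 above LPS alone. This difference was not called (adjusted p = 0.11), but was with the slide (0.94, 0.00288) or scan day (0.0167) as a block and without LPS array B (0.0361). The IL-4 with LPS and LPS groups overlapped, and this call was lost under 7 of the 10 other settings that kept all arrays and without any of 8 single arrays (LPS A, C, E, F or G, or IL-4 with LPS A, B or G).

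The fall of 0.71 from IL-4 to IL-4 with LPS was not called (0.0984), but was with the slide (0.00306) or scan day (0.00708) as a block and without IL-4 with LPS array G (0.0307).

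Pdgfb followed another course. It lay between 0.89 and 1.58 (median 1.32) on the untreated arrays and between -1.82 and 0.37 (median -0.92) on the LPS arrays, with no overlap. LPS lowered it by 2.22 ± 0.29 (4.66-fold, adjusted p = 4.8e-07). In IL-4 arrays A, B, C and G read 0.59, 0.03, 0.49 and 0.98, 0.71 below untreated (adjusted p = 0.219, and 0.0403 with the slide as a block). They fell to -3.01, -3.18, -3.54 and -1.62 with LPS, a drop of 3.36 ± 0.38 (10.3-fold, 1.14e-07). In IFN-γ arrays E, F and G read 1.89, 1.45 and 2.38 without LPS and 1.93, 2.60 and 2.69 with it. This change of 0.50 was not called (95% interval -0.41 to 1.41). After LPS, Pdgfb was therefore lower in IL-4 primed than in unprimed cells by 1.85 ± 0.34 (adjusted p = 0.000575, overlapping groups) and higher in IFN-γ primed than in unprimed cells by 3.40 ± 0.37 (3.96e-07, no overlap). The LPS change differed between IFN-γ primed and unprimed cells by 2.72 ± 0.53 (0.00118), which rose to an adjusted p of 0.0515 when arrays were scaled to their median. A second Pdgfb probe gave 2.85 ± 0.52 for this difference (adjusted p = 0.000712 over all probes).

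The other genes of the PDGF and VEGF systems numbered 14, all tested. LPS raised 6 and lowered 4, against 20.8% of all genes higher and 21.5% lower (median 0.20, against 0.06). Pdgfrb, the receptor for the B chain, rose by 6.07 ± 0.37 (adjusted p = 7.15e-13) in the cells in which Pdgfb fell. It also rose with LPS in IL-4 primed cells (5.59) and in IFN-γ primed cells (4.75). IFN-γ against untreated raised 6 and lowered 3, against 12.6% and 13.0% (median 0.19, against -0.29). The rises included Pdgfrl (4.66 ± 0.43), a receptor-like gene, and Vegfa (4.17 ± 0.48, 3.01e-07), the main factor of vessel growth. IL-4 against untreated raised Vegfc and Pgf and lowered Kdr, the main signalling receptor for VEGF-A, by 2.78 ± 0.35 (2.22e-06), against 5.73% and 5.44%, with a median of -0.09. Vegfc and Pgf were chosen after their values were seen.

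Hbegf encodes heparin-binding EGF, a ligand of the EGF receptor. Its level ran from -5.29 to -2.79 (median -4.71) on the untreated arrays and from -3.79 to -2.39 (median -3.33) with LPS. The untreated array G lay at the top of its group and inside the LPS range, and the rise was 1.33 ± 0.35 (2.52-fold, adjusted p = 0.00318; 0.68 and not called with normexp correction). In IL-4 the arrays A, B, C and G read -1.52, -0.78, -1.68 and -0.23, above all untreated arrays by 3.44 ± 0.42 (10.9-fold, 1.42e-06; 1.99 with normexp correction). LPS raised it further in IL-4 primed cells to 0.69, 0.51, 1.65 and 0.47, a rise of 1.88 ± 0.47 (0.00256). These cells lay 4.00 ± 0.42 above LPS alone (16.0-fold, 3.18e-07; 2.88 with normexp correction), with no overlap.

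In IFN-γ the arrays E, F and G read -3.88, -3.17 and -4.17 for Hbegf, a difference of 0.76 from untreated that was not called (95% interval -0.19 to 1.70), except with the slide as a block (1.46, adjusted p = 0.0164). With LPS they read -1.62, -0.93 and -2.95, a rise of 1.90 ± 0.54 (adjusted p = 0.0207). That call was lost when only these groups were fitted, with normexp correction (0.0501), and without IFN-γ array E or G or IFN-γ with LPS array E or F. The difference of 1.33 ± 0.46 from LPS alone (0.0373) was likewise lost without LPS array A, B, C or D or IFN-γ with LPS array E or F, with the experiment letter as a block (0.215), with normexp correction (0.153) and when only these groups were fitted (0.0573). The rise with LPS did not differ between primed and unprimed cells beyond error, with interactions of 0.55 for IL-4 (95% interval -0.66 to 1.77) and 0.57 for IFN-γ (-0.76 to 1.91).

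Areg encodes amphiregulin, another ligand of the EGF receptor. It was well above background on 0 of the 28 arrays, with levels from -9.56 to -6.08, so its probe gives only an upper bound in each group and no difference is reported. Of the other EGF family ligands, receptors and shedding factors 18 were tested. LPS raised 6 and lowered 1, against 20.8% of all genes higher and 21.5% lower (median 0.35, against 0.06), including Rhbdf2 (2.95), a cofactor of the sheddase ADAM17, and Adam17 itself (1.08). IFN-γ lowered the receptor Egfr by 3.31 ± 0.37 (adjusted p = 2.34e-07), and raised and lowered 3 genes each, against 12.6% and 13.0% (median -0.27, against -0.29). IL-4 raised only the ligand Tgfa of these 18 (1.44 ± 0.42, 0.024), a call lost with normexp correction, with the experiment letter as a block (0.0968), over the mean of its probes and without IL-4 array A, B or C or untreated array D or E. It lowered Adam17 (-0.71) and Lrig1 (-1.50), against 5.73% and 5.44% of all genes, with a median of 0.27 against 0.01. In IL-4 with LPS, Nrg1, encoding neuregulin-1, was 2.66 ± 0.55 above LPS alone (0.00215), which was not called with normexp correction. The Rhbdf2, Adam17 and Lrig1 values were chosen after they were seen.

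Igf1 encodes insulin-like growth factor 1, a survival factor that macrophages secrete. It lay between 4.87 and 5.34 (median 5.18) on the untreated arrays. On the IL-4 arrays A, B, C and G it was 6.61, 6.72, 7.03 and 6.68, and on the IFN-γ arrays E, F and G 2.91, 2.11 and 3.42. The 3 groups did not overlap. IL-4 raised Igf1 by 1.62 ± 0.20 (3.08-fold, adjusted p = 1.79e-06) and IFN-γ lowered it by 2.32 ± 0.22 (5.01-fold, 1.46e-08). On the brightest probe LPS left these positions in place. It read 4.99 to 5.93 (median 5.31) on the LPS arrays. In IL-4 with LPS it read 6.59 to 7.09, and in IFN-γ with LPS 3.06 to 3.68. None of the 3 LPS changes was called (0.25, 0.15 and 0.59), though the last was with the slide as a block (adjusted p = 0.0145) and without IFN-γ array G (0.0331). IL-4 primed cells lay 1.52 ± 0.20 above LPS alone (8.29e-06) and IFN-γ primed cells 1.98 ± 0.22 below it (4.52e-07).

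The 3 Igf1 probes did not give the same answer for LPS. The brightest probe and a second one are designed on RefSeq transcripts and moved together, with LPS changes of 0.25 and 0.32, neither of them called. The third is designed on a separate cDNA record that the array's annotation names Igf1. It read 1.33 to 1.86 on the untreated arrays and -2.10 to -0.87 on the LPS arrays, groups that did not overlap, and fell by 3.12 ± 0.25 (adjusted p = 9.48e-11 over all probes). In IL-4 it read 2.06 to 3.33 without LPS and 0.93 to 2.57 with it, a smaller fall of 0.90 ± 0.33 (0.036). The LPS change of this probe differed between IL-4 primed and unprimed cells by 2.22 ± 0.41 (0.00319) and between IFN-γ primed and unprimed cells by 3.36 ± 0.45 (2.52e-05). It was well above background on all 28 arrays. Against untreated cells, IL-4 raised and IFN-γ lowered all 3 probes. After LPS the third probe did not show the lower level in IFN-γ primed than in unprimed cells. Its difference there was 0.22 and not called (adjusted p = 0.665 over all probes), against -1.98 and -1.91 for the RefSeq probes. With quantile normalization the brightest probe itself fell with LPS, by 0.51 (0.0111).

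**Figure D4:**
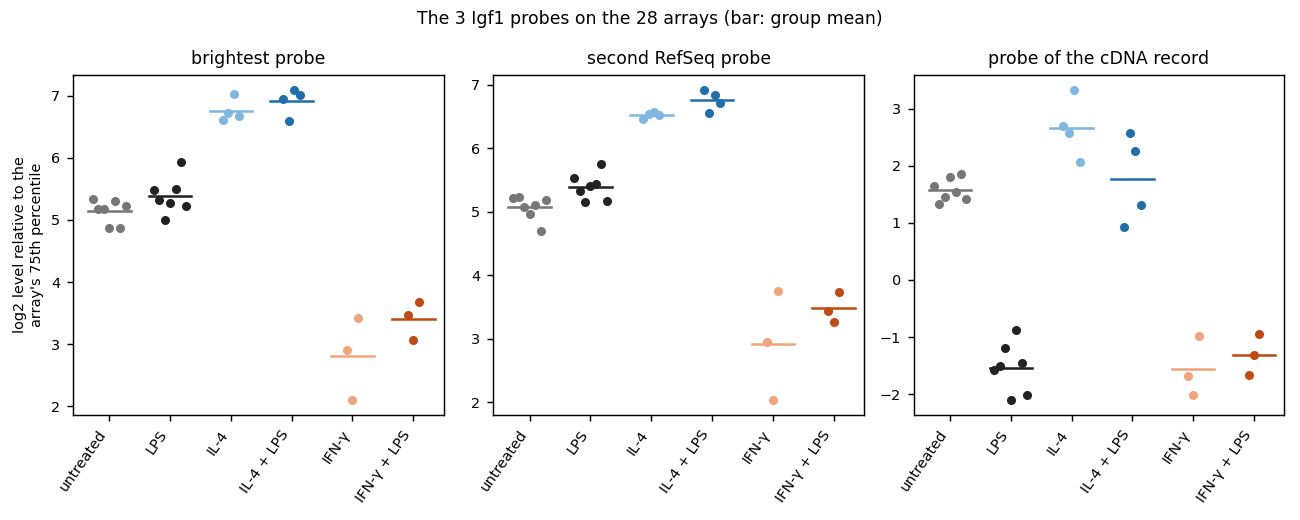
Levels of the 3 Igf1 probes (log2 processed signal minus the array's 75th percentile, each panel with its own scale) on the 28 arrays. Points are arrays and bars group means. On the probe of the cDNA record the LPS arrays lie at -2.10 to -0.87, below all untreated arrays, while on the brightest probe the LPS arrays overlap the untreated ones.

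Of 15 tested genes of the IGF pathway, IFN-γ lowered 4 and raised none, against 13.0% of all genes lower and 12.6% higher (median -0.84, against -0.29). These were Igfbp4 (-3.69 ± 0.37, adjusted p = 4.39e-08), which encodes a binding protein that holds IGF1, the receptor gene Igf1r (-3.18 ± 0.41, 1.65e-06), Igfbp1 (-2.24) and Insr (-0.89). Igfbp1 was well above background on no IFN-γ array and was at least 1.15-fold lower there. IL-4 lowered Igfbp4 by 2.05 ± 0.34 (0.00011) and no other gene of the list was called, against 5.44% of all genes lower and 5.73% higher (median -0.23, against 0.01). LPS raised Igfbp7 (2.27) and lowered Igfbp4 (-0.84) and Insr (-1.43). Igf2 was also called higher and Igfbp1 lower, at signals near background, with Igf2 well above it on 0 of 7 untreated and 1 of 7 LPS arrays and Igfbp1 on 3 and 0. These 2 rises and 3 falls compare with 20.8% of all genes higher and 21.5% lower (median 0.09, against 0.06). The values of Igf2, Igfbp7, Igfbp1 and Insr, and the LPS value of Igfbp4, were chosen after they were seen.

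Flt1 encodes VEGF receptor 1, which binds VEGF-A, VEGF-B and placental growth factor and is carried by monocytes as well as endothelium. It lay between -0.56 and 0.83 (median 0.47) on the untreated arrays and between 0.61 and 3.02 (median 1.87) with LPS. The groups overlapped in LPS array B, and the rise was 1.62 ± 0.28 (3.08-fold, adjusted p = 2.82e-05). IL-4 gave 5.87, 5.90, 5.99 and 5.60 on arrays A, B, C and G, and IFN-γ gave 4.51, 4.82 and 5.30 on E, F and G. Both lay far above all untreated arrays, by 5.64 ± 0.33 (49.9-fold, 5.89e-12) and 4.68 ± 0.36 (25.6-fold, 4.87e-10). Over the mean of the gene's probes these were 4.00 and 2.98, both still called.

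With LPS, Flt1 read 6.60, 6.80, 6.80 and 6.35 in IL-4 primed cells. This was 0.80 above IL-4 alone with no overlap but at an adjusted p of 0.113, and it was called with the slide (0.0263) or scan day (0.027) as a block, when only these groups were fitted (0.0157) and over the mean of the gene's probes (0.0106). In IFN-γ primed cells the arrays read 4.26, 4.40 and 4.35 with LPS, a change of -0.54 that was not called (95% interval -1.42 to 0.34). The LPS change was 2.16 ± 0.51 smaller than in unprimed cells (adjusted p = 0.00717). Of the 5 Flt1 probes, the 3 that were well above background on all 28 arrays rose by 4.68 to 5.03 in IFN-γ and by 5.63 to 5.65 in IL-4. With LPS alone they rose by 1.62, 1.80 and 3.64. The probe with the largest LPS rise, designed on a cDNA record, was 0.72 higher in IFN-γ with LPS than in LPS alone (adjusted p = 0.0501), against 2.51 and 2.73 for the others, and it alone gave a called interaction with IL-4 (-1.69 ± 0.34, 0.00678). The other 2 probes were above background on 13 and 3 arrays.

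Fn1 encodes fibronectin, a glycoprotein of provisional wound matrix that IL-4 is known to induce in macrophages. It lay between -7.01 and -4.07 (median -5.67) on the untreated arrays and between -6.83 and -4.76 (median -5.24) with LPS, well above background on 5 of 7 arrays in each. The groups overlapped (difference 0.32, 95% interval -0.56 to 1.19; called only with the slide as a block, 0.0332). In IL-4 the arrays A, B, C and G read -0.40, 0.18, 2.08 and -0.35, all above every untreated array, a rise of 6.11 ± 0.50 (68.8-fold, adjusted p = 2.15e-09). That size rests on dim untreated signals, and it was 3.36 (0.00274) with normexp correction and 4.12 over the mean of the gene's probes. With LPS they read 0.08, -0.94, 1.36 and -0.12, and stayed 5.51 ± 0.50 above LPS alone (3.31e-08; 3.02 with normexp correction). LPS itself did not move Fn1 in IL-4 primed cells beyond error (-0.28, 95% interval -1.44 to 0.87).

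Fn1 was not well above background on any of the 6 IFN-γ arrays, with or without LPS. On the brightest probe untreated cells were at least 2.17-fold above IFN-γ, and LPS cells at least 1.94-fold above IFN-γ with LPS. "At least" sets the brighter group's mean against a floor for each dim array, the lowest signal called well above background there or the gene's own signal if higher. The fitted falls were 1.97 ± 0.55 (adjusted p = 0.0088) and 1.91 ± 0.55 (0.0121). Neither was called with normexp correction (-1.05 and 0.16), with quantile normalization or over the mean of the gene's probes. The first was also lost with median scaling and without IFN-γ array E (0.0557), the second without IFN-γ with LPS array E (0.0765). Of 6 fibroblast markers, examined because fibroblasts make fibronectin, 2 were well above background on every untreated and every IL-4 array. Their summed level was -1.94 to -0.79 untreated, -1.63 to -0.26 with LPS, -2.42 to -1.03 with IL-4, -1.97 to 0.15 in IL-4 with LPS, -1.90 to -1.60 with IFN-γ and -1.80 to -1.16 in IFN-γ with LPS, and Pdgfra was above background on 8 of the 28 arrays. Their part in the Fn1 values was not tested.

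Fibronectin is bound by integrins and crosslinked into matrix by other secreted proteins. The list examined held fibronectin receptors, other matrix proteins such as collagens, and enzymes that modify or crosslink collagen and matrix. Of its 22 tested genes LPS raised 16 and lowered none, against 20.8% of all genes higher and 21.5% lower (median 1.14, against 0.06). Fn1 itself was not called. Lox, a collagen crosslinker, rose by 4.91 ± 0.44 (adjusted p = 1.1e-09). IL-4 raised 3 and lowered 10, against 5.73% and 5.44% (median -0.64, against 0.01). The largest rise was that of Itgb3, an integrin subunit that binds fibronectin (2.00 ± 0.38, 0.000557), and the others were Sdc4 and Cd44, both chosen after their values were seen. IFN-γ raised 6 and lowered 4, against 12.6% and 13.0% (median -0.13, against -0.29). Tgm2, the tissue transglutaminase, was lower in IL-4 than in IFN-γ by 5.46 ± 0.25 (3.28e-14).

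IL-4 and IFN-γ were set directly against each other without and with LPS. Fn1 was at least 149-fold higher in IL-4 than in IFN-γ and at least 88.1-fold higher with LPS in both (adjusted p = 1.47e-10 and 2.51e-09). These bounds hold for the brightest probe and the 75th percentile scaling. Its fitted log2 differences were 8.07 and 7.42, and 4.41 and 2.86 with normexp correction. The other Fn1 probes gave smaller differences, all called over all probes, of 4.445 and 3.689 without LPS and 3.522 and 2.503 with it. Igf1 was 15.4-fold and 11.3-fold higher in IL-4, Hbegf 6.44-fold and 6.35-fold, and Edn1 5.05-fold and 6.35-fold. Inhba was lower in IL-4, with differences of -4.94 ± 0.37 (1.62e-10; -3.36 with normexp correction) without LPS and -1.24 ± 0.37 (0.0155) with it. The second Inhba value was not called with normexp correction, when only these groups were fitted, with the experiment letter as a block (0.081), or without IFN-γ with LPS array F or IL-4 with LPS array A. Pdgfb was 1.38 ± 0.41 lower without LPS (0.0127) and 5.24 ± 0.41 lower with LPS (37.9-fold, 1.5e-09), and the first of these was lost without IFN-γ array G (0.0674). The second Pdgfb probe gave -0.78 without LPS, which was not called (adjusted p = 0.162 over all probes), and -3.98 with LPS (1.01e-07).

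Pdgfa was 1.34 ± 0.34 higher in IL-4 without LPS (adjusted p = 0.00406, not called with median scaling) and 0.19 higher with it (95% interval -0.52 to 0.89). Flt1 was 0.97 higher without LPS (0.0752, and called under 3 of the 10 other settings) and 2.30 ± 0.40 higher with it (0.000114). Tgfb1 was 0.70 ± 0.26 higher without LPS (0.0458), a call lost under 5 settings and without any of 5 arrays, and 0.91 ± 0.26 higher with it (0.0103), lost without IFN-γ with LPS array E (0.0791), with median scaling and when only these groups were fitted. The IL-4 and IFN-γ groups shared no slide, and 1 scan day held 1 array of each group. On that day the differences of all 9 genes had the direction of the fit, for example 7.49 for Fn1, 3.26 for Igf1 and -4.16 for Inhba without LPS and -4.31 for Pdgfb with it. These arrays are part of the fit, so this is not a separate check.

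The list of 14 tested further growth and repair factors showed LPS rises in 6 and falls in 4, against 20.8% of all genes higher and 21.5% lower (median 0.17, against 0.06). IFN-γ raised 3 (Met, Wnt6 and Osm) and lowered 2 (Gdf3 and Fgf13), against 12.6% and 13.0%. IL-4 raised none and lowered 2 (Gdf3 and Wnt6), against 5.73% and 5.44%. These genes were chosen after their values were seen. In cells that had received LPS, IFN-γ priming raised Gdf15, a stress-induced cytokine of the TGF-β family, by 4.27 ± 0.43 over LPS alone (adjusted p = 1.01e-07). LPS lowered Hgf, which encodes hepatocyte growth factor, in IFN-γ primed cells (-3.35 ± 0.53, 0.000116), a change that was not called with normexp correction.

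Across the 28 arrays, the gene outside the 10 whose level followed each of the 9 tested genes most closely was found by Pearson correlation. Areg is left out because it was not well above background on any array. These correlations are descriptions over arrays of 6 groups and carry no test. Edn1 was followed by Itgb8 (r = 0.965), Inhba by Slc26a2 (0.980), Fn1 by Ear10 (0.974) and Igf1 by Stxbp6 (0.968), next to a transcript with no gene name at the same r. Flt1 was followed by Slamf6 (0.940), Pdgfb by Ppp1r12c (0.925), Hbegf by Pdcd1lg2 (0.917), Pdgfa by Niban2 (0.898) and Tgfb1 by Ncl (0.825). The lowest of these values was that of Tgfb1, the gene that spans the smallest range of group means, from 1.29 to 2.30.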

How the data were processed

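RNA from 28 macrophage cultures was labelled with Cy3 and hybridised to single-colour Agilent arrays. The deposited scanner files hold background-corrected, processed signal intensity per spot from Agilent Feature Extraction 9.5.1, per the file headers. Levels here are log2 values computed from that deposited intensity, minus each array's 75th percentile. The 41174 probes were reduced to 27670 genes by taking each gene's brightest probe over all arrays. Control spots and outlier spots were left out. Genes well above background on at least 3 of 28 arrays (22447) were tested with limma 3.58.1 in R 4.3.3 (package data.table, version 1.17.8), in 1 model of 6 group means, two-sided, with Benjamini-Hochberg adjustment over all genes tested. The 95% intervals are not adjusted. The model was tested on simulated data with independent noise for each gene and array. That simulation held no slide effect, so it does not cover the deviations shared within a slide. Figures were drawn with matplotlib 3.10.9 in Python 3.11.15. The number of arrays, 3 to 7 in a group, limits the precision.

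The 10 genes and the pathway and marker lists were chosen with earlier results of these data known. Beside the 10, the text names called genes of the pathway lists, up to 3 rises and 3 falls of largest size in each comparison. It also names the gene most like each of the 9 tested genes. Every other pathway gene named was chosen after its values were seen. Of the motifs searched in promoters, 1 is not reported here.

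Arrays with the same experiment letter were compared by the correlation of their deviations across genes, which are not independent replicates. It was 0.145 to 0.718 over 4 pairs of IL-4 and IL-4 plus LPS arrays. For IFN-γ and IFN-γ plus LPS arrays it was 0.272 to 0.622 over 3 pairs, all of which shared a slide. The IL-4 pairs C and G also shared a slide (0.395 and 0.718), while pairs A and B did not (0.145 and 0.177). Untreated and LPS pairs never shared a slide and gave -0.424 to 0.157 over 7 pairs. For the pairs on 1 slide, pairing by letter cannot be told apart from sharing a slide. The letters were used as a block only as an alternative. The other alternatives were slide or scan day as a block, normexp background correction (offset 50), quantile or median scaling, 2 other filters on dim probes, the mean of all probes of a gene, fitting only the groups compared, and leaving out each array.

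The submitters' series value table was set against the scanner files. Only 2 of its 28 columns matched the array of their own name best, and 13 matched an array of another treatment group, so its 28 columns were not used. Why they differ was not tested, and an error in the naming of arrays cannot be told apart from one in that table.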

Additional observations from a re-analysis of the deposited data

Results flagged for a closer look

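In 3 of 36 sets of arrays (1 gene in 1 group of 4 or 7) a single array stood apart from the rest of its group, where chance flags about 1 in 20 groups. Edn1 on untreated array G was at -5.28, with its nearest neighbour at -7.01. Hbegf on the same untreated array G was at -2.79, with its nearest neighbour at -4.25. Fn1 on LPS array C was at -6.83, with its nearest neighbour at -5.56. The cause was not tested.

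The LPS change differed between primed and unprimed cells for 4 of the 9 tested genes, by limma's interaction term at adjusted p under 0.05. Over all genes 0.904% were called higher and 0.682% lower for the IL-4 interaction, and 3.02% and 5.23% for the IFN-γ interaction. For Edn1 it was smaller in IL-4 primed cells (interaction -5.95) and in IFN-γ primed cells (-6.28). With IFN-γ priming the interaction was -2.05 for Inhba, -2.16 for Flt1 and 2.72 for Pdgfb. Normexp correction ended the calls of Edn1 with IL-4 (-2.16) and Inhba with IFN-γ (-0.997), and median scaling that of Pdgfb (adjusted p = 0.0515).

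Among the pathway genes the IL-4 interaction was 1.85 for Tgfb3, 2.43 for Ltbp2, 1.83 for Tgfbr1 and -3.42 for Itgb8. The IFN-γ interaction was 2.14 for the SMAD repressor Ski, 2.84 for Tgfbr1, 3.69 for Gdf15, -2.31 for Pdgfrl, -3.31 for Itgb8 and -4.96 for Tnc, the gene of the matrix protein tenascin-C. With normexp correction all 4 of these IL-4 interactions, and those of Ski, Pdgfrl, Itgb8 and Tnc with IFN-γ, were no longer called. Over the mean of all probes of a gene, those of Itgb8 (-1.002, adjusted p = 0.659) and Ltbp2 (1.45, 0.2) with IL-4 and of Tnc (-1.48, 0.227) and Pdgfrl (-0.87, 0.697) with IFN-γ were lost. Itgb8 was well above background on 0 of 7 untreated and 1 of 3 IFN-γ arrays, so its unprimed change with LPS is known only as a lower bound and the size of its interactions was not measured. The IL-4 interaction of Tgfbr1 was also lost with median scaling, with the replicate block and without any of 10 single arrays, and those of Tgfb3 with IL-4 and Pdgfrl with IFN-γ without any of 3.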

How the results depend on the processing

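Of 59 calls over the 9 genes, 43 held under every alternative run and 44 under those that kept all arrays. Differences reversed for Igf1 with LPS against untreated, at -0.85 over the mean of all probes and -0.51 with quantile normalization, and for Fn1 in IFN-γ with LPS against LPS alone, at 0.16 with normexp correction. Among the pathway genes named here, normexp correction also reversed Ece2 (IL-4 with LPS against IFN-γ with LPS, -0.017), Itgb8 (IL-4 interaction, 0.21), Pappa (IL-4 with LPS against LPS, -0.47) and Smad3 (IFN-γ with LPS against IFN-γ, 0.025). The number of the 9 genes with an IL-4 interaction, 1, became 2 when only the groups compared were fitted, with the scan day as a block and when a gene had to be above background on every array of a group. It became 3 with the slide as a block and 0 with normexp correction, and leaving out 1 array gave 1 to 2 (2 without LPS array C or E or IL-4 with LPS array A or G). Normexp correction gave 3 calls in place of 6 in IFN-γ against untreated.

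With the experiment letter as a replicate block, 5 genes were called in LPS, 6 in IL-4 and 5 in IFN-γ against untreated, and 2 had an IL-4 interaction. The block ended 5 calls, those of Tgfb1 in IFN-γ against untreated and in IL-4 against IFN-γ, Pdgfa in IL-4 with LPS and Hbegf in IFN-γ with LPS against LPS, and Inhba in IL-4 with LPS against IFN-γ with LPS. It added Inhba's IL-4 interaction and changed no other call of the 9 genes. Over all genes, LPS against untreated gave 9474 calls, from 5549 (normexp) to 12857 (slide block), and the IL-4 interaction 356, from 38 to 1048. The lowest and highest counts were 737 and 3881 for IL-4 (2508) and 2660 and 7370 for IFN-γ (5754) against untreated. They were 3554 and 11482 for LPS in IL-4 (6983), and 763 and 6894 for LPS in IFN-γ (2655). They were 533 and 3794 for IL-4 with LPS against LPS (1987), and 2030 and 7491 for IFN-γ with LPS against LPS (5084). They were 734 and 4104 for the IFN-γ interaction (1854), 3042 and 6968 for IL-4 against IFN-γ (6204), and 2455 and 6739 with LPS in both (5705).

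Median scaling moved the share of calls that were higher from 49.1% to 77.8% in IFN-γ against untreated, from 46.9% to 72.8% in IFN-γ with LPS against LPS and from 48.9% to 37.7% in IL-4 with LPS against LPS. It moved it from 57% to 47% for the IL-4 interaction, from 36.6% to 25.7% for the IFN-γ interaction, from 53.1% to 27.5% in IL-4 against IFN-γ and from 54.3% to 25.3% with LPS in both. Of 418 calls over the pathway lists, normexp correction lost 206 and reversed 10, median scaling lost 94 and leaving out 1 array 105. The mean of all probes reversed 6 and quantile normalization 2. The deposited value table was not run as an alternative, because its columns did not match the arrays. Signals near background limit Edn1 in untreated cells, Fn1 outside IL-4 and Areg throughout. The causes of these shifts were not tested.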
